A study of Mus musculus with 36 samples.

Results

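The 9 genes described here belong to the complement system and were followed in the brain of Tpp1-/- mice and their controls: the C1q chain genes C1qa, C1qb and C1qc, the components C3 and C4b, the anaphylatoxin receptors C3ar1 and C5ar1, the C1 inhibitor gene Serping1, and Itgam, the alpha chain of complement receptor CR3. They were taken by gene symbol from 55450, 53379 and 54146 gene identifiers in the count tables of 1, 2 and 3 months. All 9 members passed the filter on low counts at each age, among 17916, 17229 and 17224 genes tested. Tpp1 encodes the lysosomal protease tripeptidyl peptidase 1, whose loss causes the CLN2 form of neuronal ceroid lipofuscinosis, and in the line used here Tpp1 was disrupted by gene targeting, with Tpp1-/- mice and their controls bred as siblings from heterozygous crosses. Bulk polyadenylated RNA of the forebrain/midbrain (F/M) and of the cerebellum (Cb) was sequenced from Tpp1-/- and control mice at 1, 2 and 3 months, with 3 libraries in each of 12 groups and 36 libraries in all. Controls were wild type, except that replicate 3 of each 1-month control group was Tpp1+/-.

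Complement is a cascade of plasma and tissue proteins. In the classical pathway C1q, built from the A, B and C chains, binds a target and C1 then cleaves C4 and C2, which leads to the cleavage of C3 and later of C5. Fragments of C3 and C5 act on the receptors C3aR and C5aR1, deposited C3 fragments are bound by CR3, and the C1 inhibitor restrains the first step. In the brain microglia are the main source of C1q, and astrocytes are known to make C4 and C3 when they become reactive.

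Reads assigned to genes ranged from 10609896 to 29942380 per library. The Tpp1 message was lower in every Tpp1-/- group than in its control, by 1.31 to 2.12 on the log2 scale, and no library went against its genotype label. Reads of Xist and Ddx3y, an X-linked and a Y-linked transcript that mark sex, went against the sex label in 12 of 36 libraries. All 24 libraries of 1 and 2 months had at most 162 Xist reads and at least 853 Ddx3y reads, whereas all 12 libraries of 3 months had at least 12199 Xist reads and at most 1 Ddx3y read. Sex, age and the annotation used for counting therefore cannot be told apart between 3 months and the earlier ages, while the libraries compared within an age were alike. The summed level of 8 cerebellar marker genes was 6422 to 8543 CPM (gene counts scaled to the same library total) in Cb and 229 to 312.8 CPM in F/M, as the tissue labels state. The sources used here do not say which libraries came from the same animal, so the p-values measure the spread between these libraries only.

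The 3 C1q genes lie side by side on the minus strand of mouse chromosome 4 (GRCm38), C1qb at 136880129 to 136886187, C1qc at 136889804 to 136893065 and C1qa at 136895917 to 136898803. Because these neighbours moved together in the comparisons given further on, the starts of C1qb and C1qc are shown, each with 250 bases before and 50 bases after the RefSeq start (RefSeq, build GRCm38.p6). Of the 9 members, 6 had an entry in the promoter table. Capitals mark GAGGAA, the core motif of the myeloid factor PU.1, or its reverse complement. C1qb is the stretch chr4:136886151-136886450 and C1qc is chr4:136892865-136893164, both minus strand and written 5′ to 3′.
C1qb: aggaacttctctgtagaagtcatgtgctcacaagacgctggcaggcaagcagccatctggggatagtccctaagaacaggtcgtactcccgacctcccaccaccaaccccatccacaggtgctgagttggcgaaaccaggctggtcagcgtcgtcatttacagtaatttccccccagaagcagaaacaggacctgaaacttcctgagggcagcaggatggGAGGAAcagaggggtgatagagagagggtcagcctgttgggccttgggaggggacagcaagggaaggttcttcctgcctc
C1qc: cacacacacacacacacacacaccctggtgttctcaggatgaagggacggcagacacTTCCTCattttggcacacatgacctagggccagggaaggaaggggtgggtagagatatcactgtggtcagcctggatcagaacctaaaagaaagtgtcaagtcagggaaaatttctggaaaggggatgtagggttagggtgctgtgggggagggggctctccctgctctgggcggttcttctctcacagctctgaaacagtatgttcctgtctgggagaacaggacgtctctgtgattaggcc
In C1qb the motif starts 30 bases before the start on the strand of the gene, and in C1qc it starts 193 bases before the start on the other strand. Itgam held 3 matches and C3, C3ar1 and C5ar1 held 0. GAGGAA was present on either strand in 28.3% of 32817 promoter windows of the same length, so that a match is common. The other motifs searched on both strands were TGANTCA (AP-1), found in C3ar1 and in 7.81% of all windows, the NF-kB consensus, found in 5 of the 6 members (not C5ar1) and in 50.8% of windows, TATAAA, found in C3 and C3ar1 and in 13.6%, and TTCNNNGAA (STAT) and CACGTG (TFEB), found in none of the 6 members and in 8.29% and 7.15% of windows. The NF-kB consensus may match both strands at nearly the same position, and such matches overlap.

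Members differed widely in level. Per kilobase of exon, C1qa and C1qb were the highest of the 9 in every group, and their library values overlapped at 3 months in both regions and both genotypes. Group means of the F/M controls over the 3 ages were 26.3 to 37.4 CPM per kb for C1qa, 24.3 to 36.9 for C1qb and 13.9 to 17.2 for C1qc, the third in order. Serping1 (2.42 to 3.53) and C4b (1.86 to 3.21) followed, then Itgam (1.48 to 1.81), C3ar1 (0.534 to 0.580), C5ar1 (0.340 to 0.379) and C3 (0.155 to 0.233). In the Cb controls the same per-length means were 11.8 to 14.8 for C1qa, 10.2 to 14.8 for C1qb, 5.75 to 6.96 for C1qc, 5.59 to 6.85 for Serping1 and 1.18 to 1.91 for C4b. Itgam, C3ar1, C3 and C5ar1 were below 1 CPM per kb there. In the 3-month Cb controls the libraries of C1qc and Serping1 overlapped, as did those of C3ar1 with C3 and of C3 with C5ar1. C3 and C5ar1 rested on few reads, 6 to 38 and 4 to 29 in the control libraries, and C1qa on 225 to 990.

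**Figure D1:**
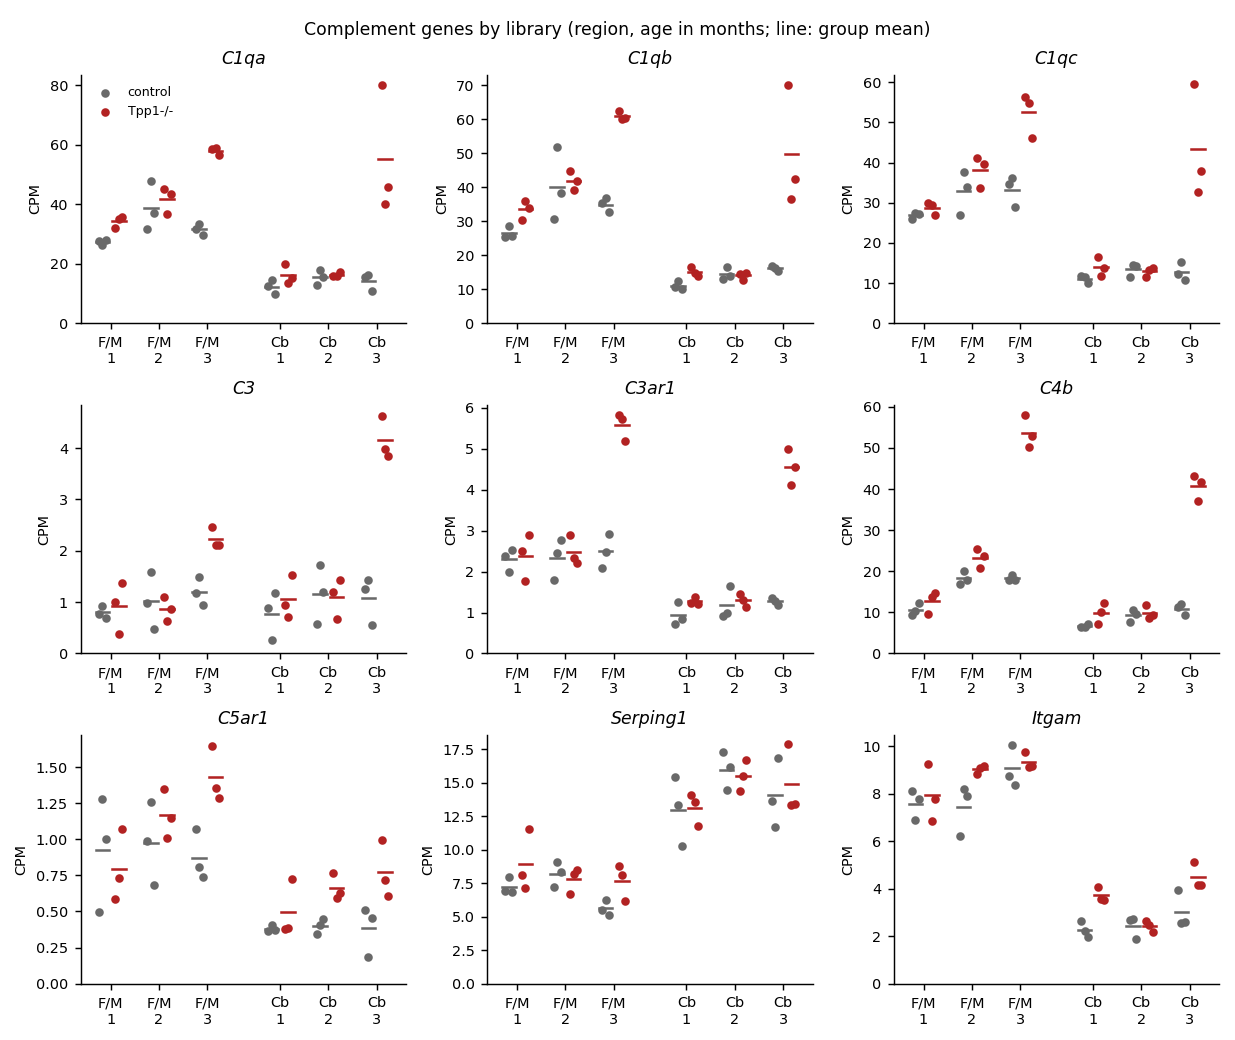
Level of each complement gene in CPM (y axis, from 0) in each of the 36 libraries, by region and age in months (x axis), with control libraries in grey, Tpp1-/- libraries in red and a line at each group mean. At 3 months the Tpp1-/- libraries of C4b, C3ar1, C3 and the C1q genes lie above the controls in both regions, and Serping1 stands higher in Cb than in F/M in both genotypes.

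At 3 months in the cerebellum, 6 of the 9 members were higher in Tpp1-/- mice: C1qa, C1qb, C1qc, C3, C3ar1 and C4b, each by 3.08- to 3.90-fold. A call took an adjusted p below 0.1 together with a difference of 1.5-fold or more in edgeR's quasi-likelihood test with Benjamini-Hochberg adjustment over all genes, and 0.673% of the 17224 genes were called higher. None was lower, and the median log2 fold change was 1.76 over the members and -0.0027 over all genes tested. In 8 of 9 members all Tpp1-/- libraries lay above all controls, against 4.46% of genes.

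C4b, whose product is split to form part of the C3 convertase, had 11.2, 12.1 and 9.25 CPM in the Cb controls and 43.2, 37.2 and 41.8 CPM in the Tpp1-/- libraries. The groups were far apart relative to their spread, with means of 10.9 ± 1.47 and 40.7 ± 3.15 CPM (SD, n = 3). The fold change was 3.75 (95% interval 3.17 to 4.43, log2 1.91 ± 0.11 SE, adjusted p = 1.22e-06, edgeR). C3, the central component, had 1.25, 1.42 and 0.547 CPM in controls and 4.63, 3.98 and 3.85 CPM in Tpp1-/- libraries, which is 12 to 31 reads against 82 to 116. Its fold change was 3.86 (2.58 to 5.77, adjusted p = 0.00234, edgeR). C3ar1, the receptor of the C3a fragment, had 1.35, 1.28 and 1.18 CPM in controls and 4.99, 4.11 and 4.55 CPM in Tpp1-/- libraries, a fold change of 3.57 (2.75 to 4.64, adjusted p = 7.06e-05, edgeR).

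The C1q genes lay above the controls in all 3 Tpp1-/- libraries, and replicate 1 stood apart. C1qa had 15.7, 16.1 and 10.8 CPM in the Cb controls and 80.1, 40.2 and 45.7 CPM in replicates 1, 2 and 3 of Tpp1-/-. C1qb had 16.8, 16.2 and 15.3 CPM against 70.1, 36.4 and 42.3 CPM, and C1qc had 12.3, 15.2 and 10.8 CPM against 59.4, 32.6 and 37.8 CPM. Replicate 1 was the highest for all 3 chains, and the other libraries were still above each control. Replicate 1 also departed from the other Cb libraries by gene length, with short genes higher and long genes lower, and the exons of C1qa, C1qb and C1qc sum to 1040, 1088 and 1931 bases. Relative to the median of the 6 Cb libraries, its log2 CPM had a median of 0.34 over 3028 genes of up to 2000 bases and of -0.19 over 6501 genes of at least 5000 bases. In the other 5 Cb libraries these medians lay between -0.089 and 0.023 and between -0.010 and 0.053. On the same scale C1qa, C1qb and C1qc stood at 1.65, 1.498 and 1.41 in replicate 1, and at 0.55 to 0.84 in replicates 2 and 3. The part of this shift in the C1q values was not tested, and the fold changes without replicate 1 follow. Replicate 1 also had the highest sum of neutrophil and monocyte markers of the 3-month libraries, given further on. The fold changes were 3.90 for C1qa (2.81 to 5.42, adjusted p = 3.45e-04, edgeR), 3.08 for C1qb (2.34 to 4.06, adjusted p = 3.75e-04) and 3.39 for C1qc (2.51 to 4.58, adjusted p = 3.75e-04). Without replicate 1 the log2 fold changes went from 1.96 to 1.598 for C1qa, from 1.62 to 1.29 for C1qb and from 1.76 to 1.46 for C1qc, and the same 6 genes were called.

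The other 3 members were not called in the 3-month cerebellum. C5ar1, the receptor of the C5a fragment, had 0.511, 0.184 and 0.456 CPM in controls and 0.997, 0.720 and 0.610 CPM in Tpp1-/- libraries, and its 2.02-fold difference (1.17 to 3.49, adjusted p = 0.518, edgeR) rested on 4 to 25 reads a library. Itgam had 3.95, 2.57 and 2.60 CPM against 5.11, 4.15 and 4.18 CPM. These libraries did not overlap, but the fold change of 1.48 (1.13 to 1.93, adjusted p = 0.368) was under the minimum, and Itgam was called when control replicate 1 was left out (log2 fold change 0.80, adjusted p = 0.0859). Serping1 overlapped, with 13.6, 11.7 and 16.8 CPM in controls and 17.9, 13.3 and 13.4 CPM in Tpp1-/- libraries (1.06-fold, 0.823 to 1.36, adjusted p = 0.985). Its difference changed sign without Tpp1-/- replicate 1 (log2 -0.073).

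In the forebrain/midbrain at 3 months, 2 of 9 members were called higher, C4b and C3ar1, against 0.412% of genes. The Tpp1-/- libraries lay above all controls in 7 of 9 members, against 11.8% of genes, and the median log2 fold change was 0.80 over the members. C4b had 17.8, 19.1 and 18.0 CPM in controls and 58.0, 50.1 and 52.9 CPM in Tpp1-/- libraries, a fold change of 2.94 (2.49 to 3.46, adjusted p = 1.26e-05, edgeR). C3ar1 had 2.09, 2.49 and 2.91 CPM against 5.82, 5.73 and 5.20 CPM, a fold change of 2.23 (1.75 to 2.85, adjusted p = 0.00509). Both were tight within groups and did not overlap.

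The C1q genes also did not overlap in F/M, but whether they were called depended on the fit. C1qa had 31.6, 33.3 and 29.6 CPM in F/M controls and 58.5, 58.9 and 56.5 CPM in Tpp1-/- libraries (1.84-fold, 1.34 to 2.52, adjusted p = 0.152, edgeR). C1qb had 35.3, 36.7 and 32.6 CPM against 62.5, 59.9 and 60.2 CPM (1.75-fold, 1.34 to 2.28, adjusted p = 0.107). C1qc had 34.7, 36.2 and 28.9 CPM against 56.4, 54.9 and 46.2 CPM (1.58-fold, 1.19 to 2.10, adjusted p = 0.317). The spread in this fit was estimated over all 12 libraries of the age, Cb Tpp1-/- replicate 1 included. Without that cerebellar library, a setting chosen after seeing the data, 5 of 9 members were called in F/M, C1qa, C1qb and C1qc among them, against 0.701% of genes called higher in the same fit. With only the 6 F/M libraries in the fit 6 of 9 were called, C3 included, against 1.4% of genes, and DESeq2 called 4 of 9, against 0.563%. With the same 12 libraries, RLE size factors added C1qb (3 of 9, against 0.412% of genes), and keeping low-count genes added all 3 C1q genes (5 of 9, against 0.419%). A fit with a replicate block called 4 of 9, against 0.343%. Limma-voom, a call without the fold minimum and the omission of any 1 of the 6 F/M libraries each left 2 of 9, C3ar1 and C4b, with no C1q gene. The fold changes themselves moved little, with a log2 value for C1qa of 0.88 as fitted here and 0.88 without the cerebellar library, 0.89 with only the F/M libraries and 0.87 with DESeq2.

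C3 in F/M had 1.17, 1.49 and 0.936 CPM in controls and 2.47, 2.11 and 2.11 CPM in Tpp1-/- libraries (1.88-fold, 1.22 to 2.88, adjusted p = 0.434). C5ar1 had 1.07, 0.808 and 0.739 CPM against 1.65, 1.35 and 1.29 CPM (1.63-fold, 1.02 to 2.61, adjusted p = 0.809). Neither gene overlapped between groups, and neither was called. Serping1 had 5.504, 6.22 and 5.13 CPM against 8.78, 8.11 and 6.17 CPM, with the lowest Tpp1-/- library just under the highest control (1.37-fold, 1.04 to 1.82, adjusted p = 0.734). Itgam was nearly level, with 8.77, 10.1 and 8.38 CPM against 9.75, 9.14 and 9.16 CPM (1.03-fold, 0.813 to 1.31).

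**Figure D2:**
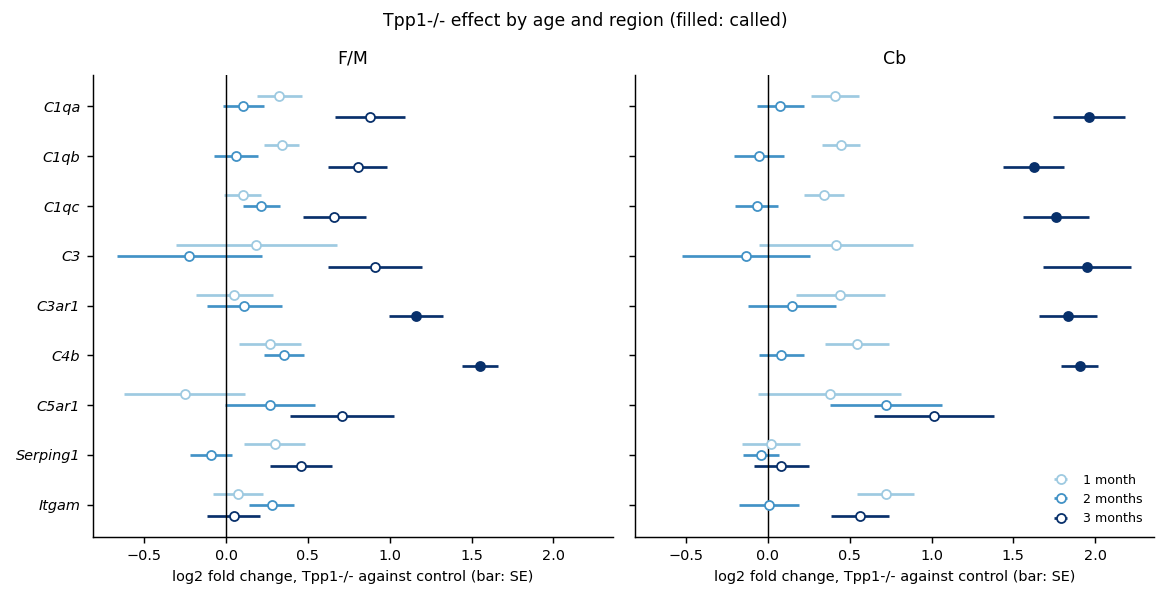
Log2 fold change of Tpp1-/- against control (x axis) for each member (y axis) in F/M (left) and Cb (right) at 1, 2 and 3 months, in light to dark blue. Bars are standard errors, and filled points were called. The 6 filled points in Cb and the 2 in F/M are all at 3 months, and at that age Serping1 and Itgam lie nearest to 0.

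Whether the Tpp1-/- effect differed between regions was tested as the difference of the 2 effects at an adjusted p under 0.1. At 3 months 0 of 9 members passed, as did 0.00581% of all genes, while 7 of 9 had an unadjusted p under 0.05 against 3.51% of genes. DESeq2 and limma-voom also called 0 of 9. The effect was 2.12-fold larger in Cb for C1qa (1.35 to 3.32), 1.77-fold for C1qb (1.21 to 2.58), 2.14-fold for C1qc (1.42 to 3.23) and 2.06-fold for C3 (1.13 to 3.73). For C4b it was 1.28-fold larger (1.01 to 1.61), and for Serping1 the ratio was 0.771, below 1. Without Cb Tpp1-/- replicate 1 the log2 difference between regions went from 1.08 to 0.71 for C1qa, from 0.82 to 0.48 for C1qb and from 1.10 to 0.80 for C1qc, with 0 of 9 called. The 3 C1q genes passed when genes with few counts were kept in the fit, with 3 of 9 called against 0.233% of genes in that fit.

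At 1 month 0 of 9 members were called in either region by edgeR, DESeq2 or limma-voom, and 0.0112% of genes were called in F/M and the same share in Cb. At an unadjusted p under 0.05 there were 2 members in F/M, against 1.89% of genes, and 5 in Cb, against 7.66%. All 5 were higher in Tpp1-/-. The count in Cb was 3 without Tpp1-/- replicate 1 or control replicate 3, and it ran from 3 to 6 over the 6 omissions. In F/M it was 3 without Tpp1-/- replicate 1 and 1 without Tpp1-/- replicate 3 or any of the 3 controls. C1qb in Cb had 10.7, 12.4 and 10.03 CPM in controls and 16.6, 14.7 and 13.8 CPM in Tpp1-/- libraries, without overlap (1.36-fold, 1.15 to 1.61, adjusted p = 0.630, edgeR). Itgam in Cb had 2.63, 2.21 and 1.98 CPM against 4.09, 3.56 and 3.52 CPM, also without overlap (1.65-fold, 1.27 to 2.13, adjusted p = 0.630). Itgam was called without Tpp1-/- replicate 3 (log2 fold change 0.78, adjusted p = 0.0493) and when low-count genes were kept. C1qa and C1qb in F/M did not overlap either, at 1.25-fold (1.02 to 1.53) and 1.27-fold (1.08 to 1.48). All Tpp1-/- libraries lay above the controls in 2 members in each region, against 4.26% of genes in Cb and 8.31% in F/M. The region difference at 1 month was called in 0 of 9 members and in 0.0% of genes, with 1 member at an unadjusted p under 0.05 against 1.94% of genes. Several lists of other cell types had positive differences in Cb at the same age, without a call. The 13 choroid plexus genes were all above 0 (median log2 fold change 0.66, 5 at an unadjusted p under 0.05), with a sum of 278 to 978 CPM in controls and 933.5 to 1377 CPM in Tpp1-/-. The 5 blood genes were all above 0 (median 0.42, 3 at an unadjusted p under 0.05), with a sum of 140 to 242 and 196 to 338 CPM. Of 15 microglial genes 12 were above 0 (median 0.14, 3 at an unadjusted p under 0.05), beside a median of 0.42 over the complement members, and their sum was 170 to 207.5 CPM in controls and 211 to 229 CPM in Tpp1-/-. The 9 meningeal fibroblast genes were all above 0 (median 0.24, 1 at an unadjusted p under 0.05), with a sum of 120 to 147.5 and 150 to 175 CPM. Of 9 reactive astrocyte genes tested 5 were above 0 (median 0.10, 2 at an unadjusted p under 0.05), with a sum of 304 to 363 and 375 to 417.5 CPM. The sums of the microglial, meningeal and reactive astrocyte lists did not overlap between genotypes. Other lists in Cb went the other way. Of 6 neutrophil and monocyte genes tested 0 were above 0 (median -0.35), and of 7 endothelial genes 2 were (median -0.030). In F/M 0 of 8 cerebellar genes were above 0 (median -0.41, 3 at an unadjusted p under 0.05). The part of these lists in the complement values at 1 month was not tested.

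At 2 months no member was called. By edgeR, DESeq2 and limma-voom 0 of 9 were called in F/M or Cb, where 0.737% and 2.05% of genes were called. At an unadjusted p under 0.05 edgeR gave 1 member in each region, against 16.9% of genes in F/M and 9.67% in Cb, DESeq2 gave 1 in F/M and 0 in Cb, and limma-voom gave 2 and 0. The edgeR count depended on single libraries. In F/M it was 5 without control replicate 2, 2 without Tpp1-/- replicate 2 and 0 without Tpp1-/- replicate 1, and in Cb it was 0 without any of 5 of the 6 libraries, all but Tpp1-/- replicate 2. C4b in F/M had 16.8, 20.1 and 17.9 CPM in controls and 25.4, 20.7 and 23.8 CPM in Tpp1-/- libraries, without overlap (1.28-fold, 1.07 to 1.53, adjusted p = 0.160). C5ar1 in Cb had 0.345, 0.407 and 0.449 CPM against 0.764, 0.590 and 0.625 CPM, also without overlap, on 6 to 21 reads (1.65-fold, 1.00 to 2.71, adjusted p = 0.510). The groups did not overlap in 2 members in F/M, C4b and Itgam, against 9.46% of genes, and in 1 in Cb, against 7.65%. For the C1q genes the intervals at 2 months bounded the fold change to at most 1.37 in F/M and 1.295 in Cb. The region difference at 2 months was called in 0 of 9 members and in 2.97% of genes, with 0 members at an unadjusted p under 0.05 against 11.5% of genes. At this age the choroid plexus list (13 genes) had 8 members called higher in F/M and 7 in Cb. In Cb 7 of 12 midbrain and thalamus genes were called lower (median log2 fold change -1.91), with a sum of 239 to 274 CPM in controls and 141 to 172 CPM in Tpp1-/-, and 4 of the 6 neutrophil and monocyte genes tested were called lower (median -1.46), with a sum of 11.4 to 17.1 and 3.02 to 7.77 CPM. In F/M 0 of 10 astrocyte genes were called, with 10 above 0 (median 0.27) and 6 at an unadjusted p under 0.05. Of 12 midbrain and thalamus genes 1 was called higher in F/M and 11 were above 0 (median 0.34), with a sum of 262 to 330 CPM in controls and 345 to 387.5 CPM in Tpp1-/-, without overlap. The reactive astrocyte sum in F/M was 242 to 284 and 297 to 319 CPM, also without overlap, with 0 of 9 tested called. In Cb it was 334 to 347 and 357 to 393 CPM, without overlap. There 1 of 9 tested was called lower and 4 had an unadjusted p under 0.05. The forebrain sum in F/M was 675 to 702 and 601 to 622 CPM, with 3 of 7 genes at an unadjusted p under 0.05. Of 8 cerebellar genes 1 was called higher in F/M, with 4 at an unadjusted p under 0.05. All 7 endothelial genes and 13 of 15 microglial genes were above 0 in F/M (medians 0.18 and 0.16), with 2 and 3 at an unadjusted p under 0.05 and 0 called. The part of these lists in the complement values at 2 months, and in the change from 2 to 3 months, was not tested.

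The change of the Tpp1-/- effect from 2 to 3 months was tested in a fit over all 36 libraries, with controls of the same age behind each effect. In Cb the effect was larger at 3 months for 6 of 9 members, C1qa, C1qb, C1qc, C3, C3ar1 and C4b, against 1.3% of 18322 genes. The log2 differences were 1.88 ± 0.27 for C1qa, 1.68 ± 0.24 for C1qb, 1.83 ± 0.24 for C1qc, 1.69 ± 0.32 for C3ar1 and 1.83 ± 0.22 for C4b (SE, adjusted p = 3.70e-05, 3.23e-05, 7.78e-06, 0.00208 and 2.46e-06, edgeR). For C3 it was 2.07 ± 0.58 with an adjusted p of 0.0831, and this call was lost when any of 7 of the 12 libraries of the comparison was left out (adjusted p = 0.101 to 0.540). In F/M 1 of 9 members passed, C4b with 1.21 ± 0.21 (adjusted p = 0.00764), against 0.158% of genes.

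Between the control regions 8 of 9 members were called at each age, against 36.9%, 39.3% and 37.7% of genes at 1, 2 and 3 months. Of these, 7 were lower in Cb than in F/M and Serping1 was higher. Itgam had the lowest ratio of Cb to F/M, 0.300, 0.328 and 0.336 at 1, 2 and 3 months (adjusted p = 3.38e-07, 4.24e-08 and 3.49e-06, edgeR). The ratios of C1qa were 0.449, 0.398 and 0.451, and those of C4b were 0.634, 0.515 and 0.594. The C4b value at 1 month fell under the fold minimum without control replicate 3 of F/M (log2 -0.54). Serping1 was 1.79, 1.94 and 2.51 times higher in Cb (adjusted p = 0.00116, 6.97e-07 and 2.96e-05). C3 did not differ between the control regions beyond its spread (ratios 1.00, 1.16 and 0.904, adjusted p = 0.652 to 0.999).

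The proportion of the 3 C1q chains varied less than their levels. Per kilobase, C1qb stood at 0.766 to 1.36 times C1qa (median 0.935) and C1qc at 0.392 to 0.591 times C1qa (median 0.488) over 36 libraries. At 3 months C1qb to C1qa was lower in Tpp1-/- without overlap, at 0.959 to 1.36 in controls and 0.837 to 0.884 in Tpp1-/- in Cb, and at 1.05 to 1.07 and 0.973 to 1.02 in F/M. C1qc to C1qa was 0.525 to 0.591 and 0.440 to 0.519 in F/M, also without overlap, and 0.424 to 0.541 and 0.400 to 0.446 in Cb, where the groups overlapped. These ratios were not tested. Against 15 microglial marker genes, which hold no member, the summed C1q level was higher in Tpp1-/- at 3 months. In Cb the C1q sum was 0.196 to 0.213 of the marker sum in controls and 0.323 to 0.448 in Tpp1-/-, and in F/M 0.171 to 0.190 and 0.239 to 0.266. The marker list moved as well: in Cb its sum was 184 to 229 CPM in controls and 338 to 468 CPM in Tpp1-/- libraries, with 5 of 15 genes called higher, and in F/M 534 to 563 and 658 to 725 CPM, with 3 of 15 called. In bulk tissue more microglia and more C1q RNA per cell cannot be told apart. Of 10 reactive astrocyte genes 6 were called higher in Cb and 3 in F/M, and their sum was 335 to 392 CPM in Cb controls and 711 to 983 CPM in Tpp1-/-. General astrocyte markers were called in 0 of 10 in either region, with 2 in Cb and 0 in F/M at an unadjusted p under 0.05.

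Lists of cells from blood and of neighbouring regions were also compared at 3 months. Of 12 neutrophil and monocyte genes 0 of the 5 tested were called in either region, with 0 at an unadjusted p under 0.05. Their sum was 6.82, 6.56 and 7.88 CPM in the Cb controls and 21.0, 2.20 and 4.79 CPM in replicates 1, 2 and 3 of Cb Tpp1-/-. Replicate 1, the library highest for the C1q genes, was thus above every control, and the other two were below every control. In F/M the sum was 1.33 to 2.497 CPM in controls and 1.19 to 3.30 CPM in Tpp1-/-. The defining marker Ly6g had 0 or 1 read in each 3-month library except 4 in Cb Tpp1-/- replicate 1, and Ly6c2 had 0 to 4 reads. Of 5 blood genes 0 were called, and all 5 were below 0 in both regions. Their median log2 fold change was -0.88 in Cb, with 3 at an unadjusted p under 0.05, and -0.60 in F/M, with 0. The blood sum was 69.3 to 77.7 CPM in F/M controls and 34.0 to 56.2 CPM in Tpp1-/-, without overlap, and 80.7 to 262 and 59.5 to 106.5 CPM in Cb. In F/M 1 of 12 midbrain and thalamus genes was called lower and all 12 were below 0 (median -0.28), with a sum of 351 to 369 CPM in controls and 267 to 306 CPM in Tpp1-/-, without overlap. In F/M the 8 cerebellar genes were all below 0 (median -0.28), as were the 7 forebrain genes in Cb (median -0.42), with 3 of each list at an unadjusted p under 0.05 and 0 called. The part of any of these lists, microglia and astrocytes included, in the 3-month complement values was not tested.

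**Figure D3:**
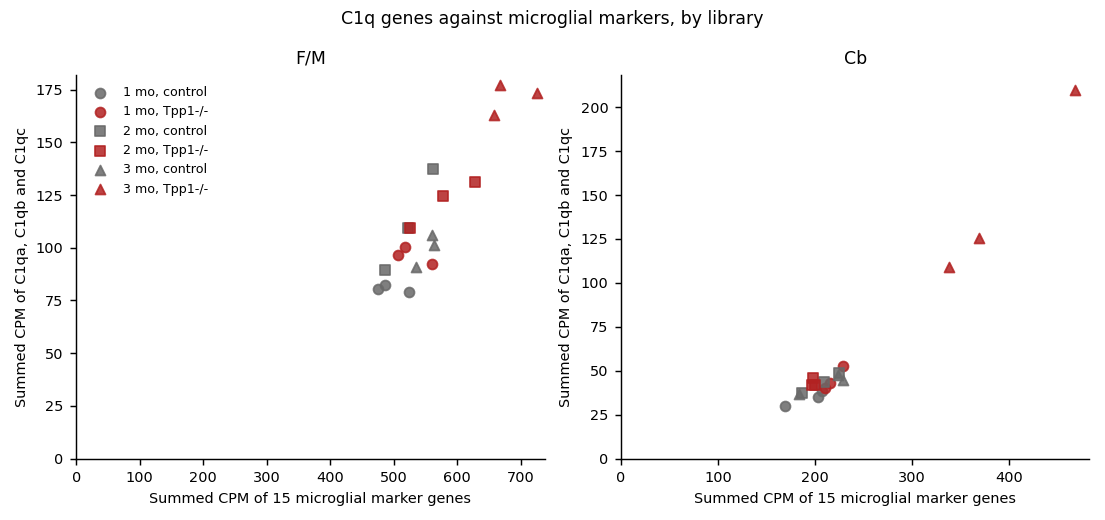
Summed CPM of C1qa, C1qb and C1qc (y axis) against the summed CPM of 15 microglial marker genes (x axis) in each library of F/M (left) and Cb (right). Circles, squares and triangles are 1, 2 and 3 months, grey is control and red Tpp1-/-. The 3 Tpp1-/- Cb libraries of 3 months lie apart at 109 to 210 CPM of C1q, and replicate 1 is the highest on both axes.

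C4b shares long stretches with its neighbour on chromosome 17, C4a, and 34.6% of the distinct 50-base words of its transcripts (the length of the reads) also occur in C4a. C4a had 3 to 41 reads a library and was not called in any Tpp1-/- comparison (3 months: log2 -0.10 in Cb and 0.45 in F/M). With the C4a reads added to C4b, the 3-month log2 fold changes of C4b were 1.86 in Cb and 1.53 in F/M, and both were called. Of the words of Itgam, 66.3% also occur in Gm49368, a gene model listed under this name only at 1 month, at 0 or 1 read. At 2 months another identifier also carried the symbol Itgam, and whether it is the same model was not checked. Levels of Itgam between ages are therefore uncertain. The values given are those of ENSMUSG00000030786 at each age. The other 7 members shared no such word with another gene.

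Beyond the members, 59 other complement genes were listed by role, of which 34 passed the filter at all ages and 12 had 3 reads or fewer in every library. At 3 months 2 of the 37 tested were called, both receptor chains and both higher in both regions. Of all genes tested, 0.412% were called higher in F/M and 0.673% in Cb. Itgb2, the beta chain that pairs with the products of Itgam and Itgax, had 96, 92 and 90 reads in F/M controls and 201, 158 and 178 in Tpp1-/-, and 67, 53 and 48 against 156, 122 and 158 in Cb. Its log2 fold changes were 0.87 (adjusted p = 0.0475) and 1.28 (adjusted p = 0.00282, edgeR). Itgax, the alpha chain of complement receptor CR4, had 3, 2 and 9 reads in F/M controls and 123, 91 and 82 in Tpp1-/-, and 4, 4 and 4 against 121, 87 and 98 in Cb. Its log2 fold changes were 4.31 (adjusted p = 1.60e-05) and 4.53 (adjusted p = 5.66e-06), and Itgam, whose product also pairs with that of Itgb2, was called in neither region.

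The remaining roles showed no call at 3 months by edgeR. Of the classical and lectin pathway genes 9 of 16 were tested and 0 had an unadjusted p under 0.05 in either region (median log2 fold change 0.089 in F/M and -0.11 in Cb). Of the alternative and terminal pathway genes 4 of 10 were tested, with 1 at an unadjusted p under 0.05 in each region. They were Cfp in F/M (log2 fold change 0.68) and C7 in Cb (3 reads or fewer in each library), both named after their values were seen. C6, C8b, C9, Cfb and Cfd were at 3 reads or fewer in every 3-month library. Of the regulators 16 of 24 were tested, with 0 at an unadjusted p under 0.05 (medians 0.027 and 0.036). At 1 and 2 months 0 of the genes tested in these lists were called, with 0 to 3 per list and region at an unadjusted p under 0.05.

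**Figure D4:**
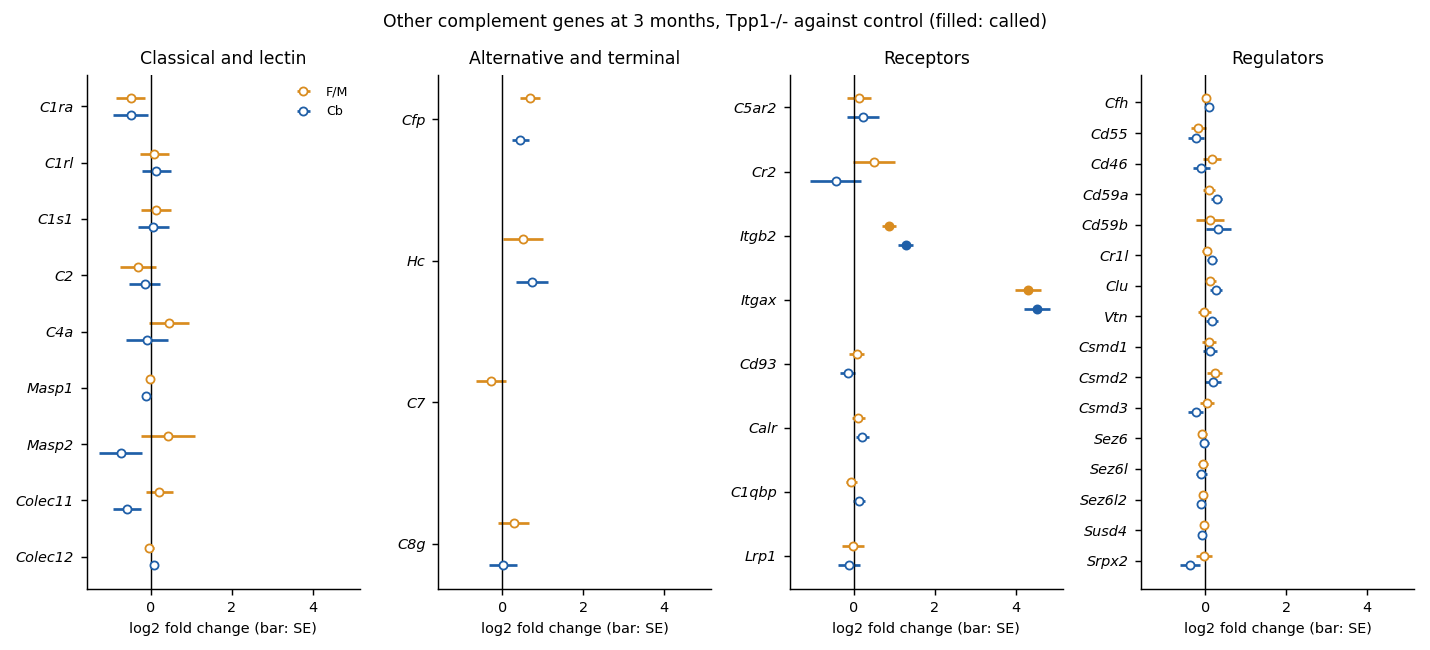
Log2 fold change of Tpp1-/- against control at 3 months (x axis, bars are standard errors) for the other complement genes that passed the filter, by role, with F/M in orange, Cb in blue and called genes filled. Itgb2 and Itgax are the only filled points; C7 in Cb, at 3 reads or fewer in each library, is not drawn.

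Within groups, the C1q genes varied together. After subtraction of the 12 group means, log2 CPM over the 36 libraries gave Pearson r of 0.866 for C1qa with C1qb, 0.883 for C1qa with C1qc and 0.765 for C1qb with C1qc, and 0.778, 0.816 and 0.613 without Cb Tpp1-/- replicate 1 of 3 months. All other pairs of members lay between -0.156 and 0.435. These values share libraries and depth and are a description. Many genes outside the complement system were as close. Among 16713 genes ranked by r, C1qc and C1qb took ranks 17 and 35 for C1qa, C1qa and C1qc took ranks 10 and 300 for C1qb, and C1qa and C1qb took ranks 3 and 142 for C1qc. Of all these genes, the 3 most like C1qa included Ndufb5 (r = 0.908) and Arl6ip1 (0.904), and those most like C1qc included Tmem242 (0.920) and C1qa (0.883). For C1qb they were Csrp1 (0.937), Echs1 (0.890) and Slc48a1 (0.889), and for C4b Heph (0.832), Endod1 (0.813) and Plcd4 (0.780). For the other members the highest r were 0.772 (Serping1 with Tor1a), 0.752 (C3ar1 with 2810414N06Rik), 0.717 (C5ar1 with Casq1), 0.700 (C3 with Lyrm7) and 0.677 (Itgam with Cd84).

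**Figure D5:**
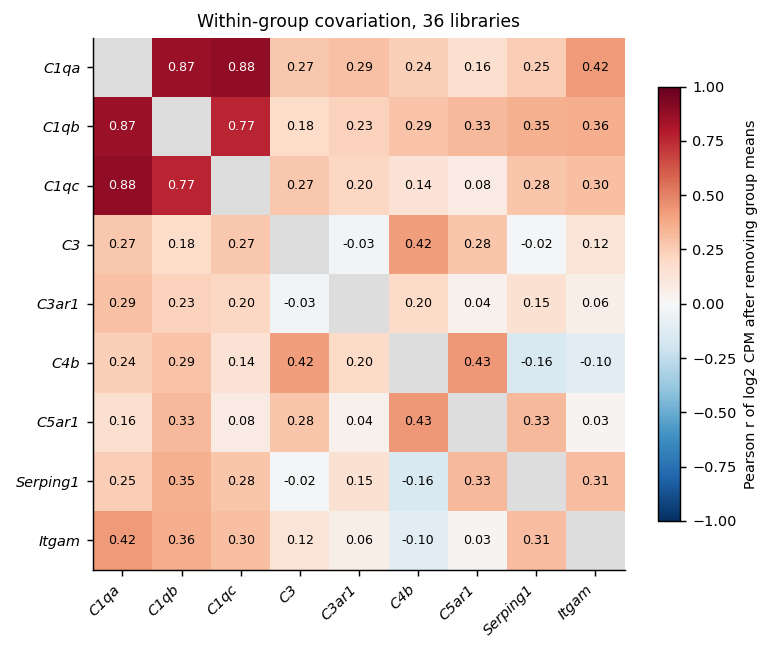
Pearson r between members over the 36 libraries, computed on log2 CPM after the mean of each of the 12 groups was removed (both axes list the members, and colour runs from -1 to 1). Among the members the 3 C1q pairs lie at 0.77 to 0.88 and the remaining pairs between -0.16 and 0.44, while many genes that are no member correlate as closely with the C1q genes.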

How the data were processed

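Bulk RNA of 36 libraries (forebrain/midbrain and cerebellum, Tpp1-/- and control, 1, 2 and 3 months, 3 libraries a group) was made into stranded TruSeq mRNA libraries and read as single 50-base reads. The deposited values are read counts per gene. The authors aligned reads to GRCm38 with STAR 2.5.2b, and per the file headers counted them with featureCounts 1.6.3 and GENCODE M21 (strand setting 1) at 1 month, 1.6.2 and M16 (setting 2) at 2 months and 1.6.2 and M18 (setting 1) at 3 months. Levels are therefore compared between ages only as Tpp1-/- effects.

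Counts were fitted per age over 12 libraries (4 groups) with edgeR 4.0.16 in R 4.3.3 (quasi-likelihood test, TMM, low counts removed by filterByExpr), and over 36 libraries for the change from 2 to 3 months. P-values were adjusted by the Benjamini-Hochberg method over all genes tested. A call needed an adjusted p under 0.1, and between groups also a fold change of at least 1.5. CPM are counts scaled to TMM-adjusted library totals of the genes kept. Standard errors follow from the quasi-likelihood F, and 95% intervals from them with the t quantile at the total degrees of freedom of the gene. With 3 against 3 libraries an exact permutation test cannot go below p = 0.1, so none was used. DESeq2 1.42.0, limma-voom (limma 3.58.1), other size factors, no filter, no fold minimum, a replicate block, fits of 6 libraries and omission of each library were tried as alternatives, and 2 more were chosen after seeing the data: C4a reads added to C4b, and F/M at 3 months without Cb Tpp1-/- replicate 1.

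The members and lists were chosen with earlier results of these data known. Named were the 9 members, every gene of the wider complement lists called in a Tpp1-/- comparison, C4a, Tpp1 and the 3 genes most correlated with each member, of which 1 gene is not reported here. Same-numbered libraries were checked for pairing: deviations from group means correlated at -0.0855 to 0.229 between control and Tpp1-/- libraries (18 pairs, 6 over 0.1) and at -0.0395 to 0.198 between regions (18 pairs, 5 over 0.1). All pairs passed 0.1 only between the 1-month control regions, where the block left 8 members called. Depth was 10609896 to 29942380 assigned reads, and 0 columns of the count tables were left unused. Figures were drawn with matplotlib 3.10.9.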

Additional observations from a re-analysis of the deposited data

Results flagged for a closer look

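For 6 members in Cb and 1 in F/M the difference between Tpp1-/- and control was larger at 3 than at 2 months, by a test of the difference itself (edgeR, adjusted over 18322 genes), against 1.3% and 0.158% of genes larger in Cb and F/M. In Cb the log2 difference of the effects was 1.88 for C1qa, 1.68 for C1qb, 1.83 for C1qc, 2.07 for C3, 1.69 for C3ar1 and 1.83 for C4b. The C3 value had an adjusted p of 0.0831, and its call was lost when any of 7 of the 12 libraries was left out. In F/M the difference was 1.21 for C4b. The 3-month libraries also differed from the 2-month libraries in the sex their Xist and Ddx3y reads show and in the annotation and strand setting of the counts, and these cannot be told apart from age.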

How the results depend on the processing

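Leaving out 1 library at a time gave 1035 values, of which 956 kept direction and side of the threshold, 8 fell below it, 5 rose past it and 66 changed sign. The other alternatives gave 695, of which 672 kept both, 0 fell below, 18 rose past it and 5 changed sign. In Cb at 3 months 6 members were called under each alternative that kept all libraries, and 6 to 7 with 1 library left out. In F/M at 3 months the count of 2 became 3 with RLE size factors, against 0.412% of genes called higher. It was 4 with DESeq2 (0.563%), 5 with no filter (0.419%) and 6 with only the 6 libraries compared (1.4%). The replicate block gave 4 (0.343%). With 1 library left out the count was 2 to 5 (0.182% to 0.701%), the 5 without Cb Tpp1-/- replicate 1 (0.701%). With no filter 1 member, Itgam, was called in Cb at 1 month (0 to 1 with 1 library left out). The share of genes called in these 1-month fits is not given. Also with no filter, 3 members were called in the region difference at 3 months and 3 in the change from 2 to 3 months in F/M. The shares there were 0.233% and 0.707% of genes. The block changed no other count of calls. In the change from 2 to 3 months in Cb the count was 5 to 6 with 1 library left out, and between control regions at 1 month 7 to 8. The cause of these changes was not tested.

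None of the sign changes concerned a called value. C3 between the control regions at 1 month was -0.03125 with DESeq2, -0.01309 with RLE size factors, -0.1923 with limma-voom and -0.08573 with the replicate block, and Itgam in Cb at 2 months was -0.01563 with the block. With 1 library left out, the lowest and highest log2 values were as follows. C1qa ran from -0.030 to 0.20 in Cb at 2 months, -0.030 to 0.28 in F/M at 2 months, -0.10 to 0.21 in the region difference at 1 month and -0.21 to 0.11 in the region difference at 2 months. C1qb ran from -0.13 to 0.056 in Cb at 2 months, -0.11 to 0.29 in F/M at 2 months and -0.34 to 0.055 in the region difference at 2 months. C1qc ran from -0.16 to 0.0094 in Cb at 2 months. C3 ran from -0.44 to 0.38 between control regions at 1 month, -0.18 to 0.69 between control regions at 2 months, -0.40 to 0.17 between control regions at 3 months, -0.43 to 0.27 in Cb at 2 months, -0.20 to 0.56 in F/M at 1 month, -0.55 to 0.25 in F/M at 2 months, -0.15 to 0.66 in the region difference at 1 month and -0.38 to 0.49 in the region difference at 2 months. C3ar1 ran from -0.10 to 0.23 in F/M at 1 month, -0.058 to 0.25 in F/M at 2 months and -0.10 to 0.34 in the region difference at 2 months. C4b ran from -0.075 to 0.19 in Cb at 2 months. C5ar1 ran from -0.53 to 0.044 in F/M at 1 month, -0.027 to 0.56 in the change from 2 to 3 months in Cb and -0.021 to 0.57 in the region difference at 3 months. Itgam ran from -0.15 to 0.10 in Cb at 2 months, -0.054 to 0.17 in F/M at 1 month and -0.013 to 0.12 in F/M at 3 months. Serping1 ran from -0.12 to 0.17 in Cb at 1 month, -0.11 to 0.016 in Cb at 2 months, -0.073 to 0.23 in Cb at 3 months, -0.19 to 0.021 in F/M at 2 months, -0.035 to 0.27 in the change from 2 to 3 months in Cb and -0.059 to 0.15 in the region difference at 2 months. Low counts limit C3 and C5ar1, whose control libraries held 6 to 38 and 4 to 29 reads.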
